A study of Mus musculus with 16 samples.

Results

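Arginine is used by myeloid cells along several routes. The inducible nitric oxide synthase (*Nos2*) turns it into nitric oxide and citrulline. Argininosuccinate synthase (*Ass1*) acts in the return of citrulline to arginine, and ornithine decarboxylase (*Odc1*) takes ornithine, which can be made from arginine, into polyamine synthesis. In mouse macrophages, *Nos2* is classically induced by interferon gamma with microbial products, and it is known from myeloid cells of tumors.

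These 3 genes were chosen by name, as enzymes of those routes, out of 24495 gene symbols measured, and each was found in every table under a single name. RNA of single cells had been measured in tumors and spleens of mice carrying tumors of MC38, a mouse colon adenocarcinoma line. The mice were 8-week-old littermates on the C57BL/6 background, either *Aire*+/+ or *Aire*-/-, that is, lacking the autoimmune regulator through which the thymus displays self-antigens. Each genotype had been given an isotype control antibody or an antibody to PD1 (anti-PD1), and tissue was taken on day 19. Sorted CD45+ cells, which are leukocytes, and sorted CD8+ cells of each tissue gave 16 libraries. Tumors of 4 to 6 mice were pooled for each of the 4 conditions, and spleens were pooled as well. Every condition, tissue and sort therefore had 1 library, and no difference between conditions has a replicate to check it against. Tumor and spleen are compared within each of the 4 conditions. For flow cytometry, the paper describes enzymes to dissociate tumors and mechanical dispersion of spleens. If the sequenced cells were prepared likewise, tissue and preparation cannot be told apart. Sets of 4 values run from *Aire*+/+ to *Aire*-/-, with isotype before anti-PD1 in each genotype, unless a sentence names the condition. On the GRCm38 build, *Nos2* lies on chromosome 11 from 78920787 to 78960226 and *Ass1* on chromosome 2 from 31470270 to 31520670. *Odc1* is on chromosome 12 from 17544808 to 17551502.

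Transcripts were counted as unique molecular identifiers (UMIs), tags that mark each captured RNA molecule. The CD45+ tumor libraries held 2930, 2208, 1856 and 2075 cells with 38930018, 28760725, 24639380 and 23282801 UMIs, and a median of 11892, 11858.5, 12251.5 and 9889 UMIs per cell. The CD8+ tumor libraries held 2684, 2221, 1858 and 2212 cells with 35163283, 27052446, 22414026 and 23271163 UMIs, at medians of 11163.5, 10349, 10199 and 8883 per cell. Spleen cells were shallower in every library. CD45+ spleen gave 12131829, 10927395, 11179230 and 12618100 UMIs over 2095, 2088, 2023 and 2393 cells, with medians of 4549, 4413.5, 4733 and 4502. CD8+ spleen gave 20126142, 19167791, 15590033 and 16279428 UMIs over 2898, 2944, 2339 and 2629 cells, with medians of 6405, 6304.5, 6282 and 5801. Of the 37453 cells in all, 1736 (4.64%) carried a barcode that also occurred in another library, and the 120 pairs of libraries shared between 2 and 18 barcodes, with a median of 7. *Aire* itself gave 0 to 6 UMIs per library, too few to check the genotype labels. Levels are UMIs of a gene per 1000000 UMIs (CPM) of the library or of the cells named. Sums carry exact Poisson 95% intervals, ratios conditional exact intervals and shares of cells Clopper-Pearson intervals, all of which cover counting error only. Where 0 was counted, the limit given is instead 3 counts of the total.

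The 3 genes separated tumor from spleen and then sorted themselves among cell types. *Nos2* was a tumor transcript, held mostly by macrophage-like and monocyte-like cells. It was at or near 0 in the spleen, where macrophage-like cells were few. *Ass1* was found in both tissues, and *Odc1* was many times higher in tumor T and NK cells than in their splenic counterparts. Between conditions, *Nos2* differed most: macrophage-like cells of *Aire*-/- mice given anti-PD1 held 7.33 times the *Nos2* level of their *Aire*+/+ counterparts.

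In whole CD45+ tumor libraries *Nos2* measured 14.9 CPM in *Aire*+/+ isotype, 13.1 in *Aire*+/+ anti-PD1, 19.2 in *Aire*-/- isotype and 25.0 in *Aire*-/- anti-PD1, and *Odc1* was 235, 293, 280.5 and 443 CPM. Both were highest in *Aire*-/- anti-PD1, where the level over *Aire*+/+ anti-PD1 was 1.91-fold for *Nos2* (log2 0.93) and 1.52-fold for *Odc1* (log2 0.60). *Ass1* measured 130.4, 139.7, 164 and 104 CPM and was lowest there. In a whole library, fewer cells of a type and less RNA per cell cannot be told apart.

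**Figure D1:**
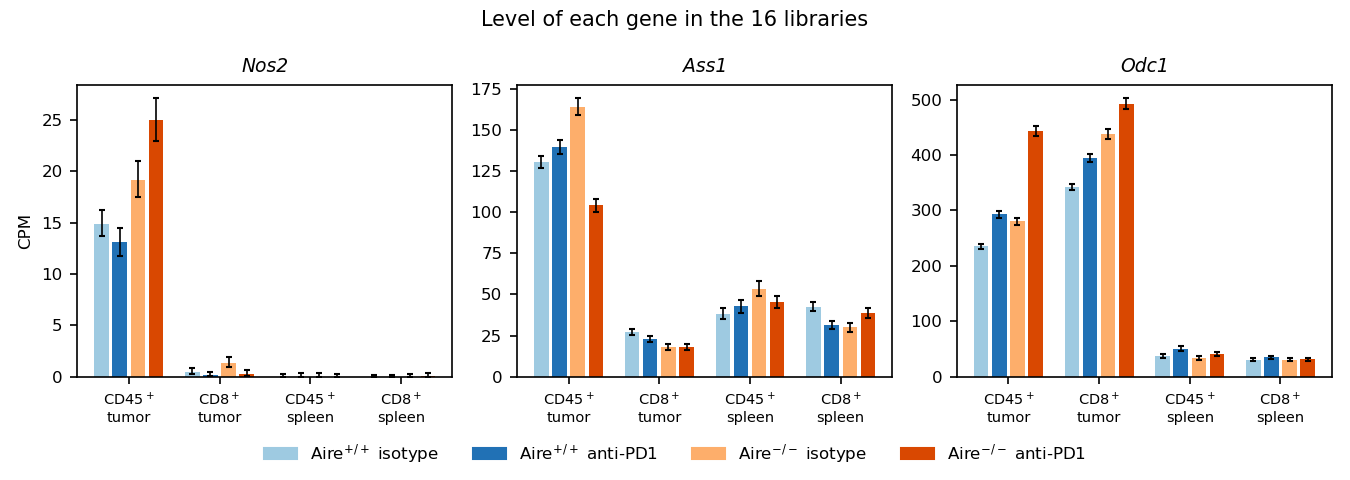
Level of each of the 3 genes (bars, CPM) in the 16 libraries, by tissue, sort and condition, with 95% counting intervals and an axis of its own for each gene. In CD45+ tumor *Odc1* lies between 235 CPM in *Aire*+/+ isotype and 443 CPM in *Aire*-/- anti-PD1, and *Nos2* was not found in any CD45+ spleen library.

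Spleens held almost no *Nos2*. *Nos2* gave 0 UMIs in the 4 CD45+ spleen libraries, which allows up to 0.247, 0.275, 0.268 and 0.238 CPM, and 1 UMI over the 4 CD8+ spleen libraries. By the marker thresholds given next, the CD45+ spleen libraries held 8, 4, 3 and 4 macrophage-like cells and 166, 110, 98 and 62 monocyte-like cells. A count of 0 there therefore says little about splenic macrophages.

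Cells were then typed by thresholds on marker UMIs that used none of the 3 genes. Macrophage-like cells had at least 10 UMIs of the complement genes *C1qa*, *C1qb* and *C1qc*. Monocyte-like cells had fewer, with at least 10 UMIs of *Lyz2* and at least 5 of *Ly6c2*, *Ccr2*, *Chil3* and *Plac8*. The CD45+ tumor libraries held 1064, 703, 499 and 184 macrophage-like cells, or 36.3%, 31.8%, 26.9% and 8.87% of cells, and 789, 539, 516 and 417 monocyte-like cells, or 26.9%, 24.4%, 27.8% and 20.1%. Macrophage-like cells were therefore scarcest where whole-library *Nos2* was highest. CD8 T-like cells, which had at least 2 UMIs of CD3 genes and at least 1 of CD8 genes, ran the other way with 145, 212, 213 and 724 cells, or 4.95%, 9.60%, 11.5% and 34.9%. Neutrophil-like cells, with at least 2% of their UMIs from *S100a8* and *S100a9*, were few, at 19, 20, 13 and 9. Macrophage-like cells contributed 60.5%, 52.9%, 65.9% and 51.5% of the *Nos2* UMIs of their libraries. Cells that met no gate contributed 18.8%, 18.9%, 10.4% and 8.61%, with *Nos2* at 26.6, 22.9, 26.5 and 48.6 CPM, so the types named here do not hold all of it.

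*Nos2*, which the study's text names as a marker raised in macrophages of anti-PD1-treated *Aire*-/- mice, was 21.6, 18.5, 40.3 and 136 CPM in macrophage-like cells, from 351, 199, 311 and 299 UMIs. The *Aire*-/- anti-PD1 level was 7.33 times that of *Aire*+/+ anti-PD1 (log2 2.87, interval 2.61 to 3.14) and 3.37 times that of *Aire*-/- isotype (log2 1.75, interval 1.52 to 1.98). Under isotype, *Nos2* was 1.87 times higher in *Aire*-/- than in *Aire*+/+ macrophage-like cells (log2 0.90, interval 0.68 to 1.13). In *Aire*+/+ mice the anti-PD1 and isotype levels were not distinguishable at this depth (log2 −0.22, interval −0.48 to 0.03). The order of *Nos2* levels was therefore *Aire*-/- anti-PD1, *Aire*-/- isotype, then both *Aire*+/+ conditions.

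Monocyte-like cells held *Nos2* at 10.1, 14.4, 14.9 and 43.0 CPM, from 96, 96, 96 and 195 UMIs. Here too *Aire*-/- anti-PD1 was highest, at 2.99 times *Aire*+/+ anti-PD1 (log2 1.58, interval 1.22 to 1.95) and 2.90 times *Aire*-/- isotype (log2 1.53). A single cell held 29 of its 195 *Nos2* UMIs. Without the cell richest in *Nos2* in each library the log2 ratio to *Aire*+/+ anti-PD1 was 1.54.

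Macrophage-like cells with *Nos2* were 13.3% (11.3 to 15.4), 11.7% (9.39 to 14.3), 18.6% (15.3 to 22.3) and 32.1% (25.4 to 39.3). The *Aire*-/- anti-PD1 share lay above the other 3 intervals although those cells were the shallowest. Depth differed between cells, with medians of 14195.5, 14583, 13780 and 11406 UMIs in macrophage-like, 11815, 12063, 12314 and 10892 in monocyte-like and 9409, 8676.5, 10275 and 8951.5 in CD8 T-like cells. Every cell was therefore also thinned to 5000 UMIs, which left out 38, 18, 20 and 9 macrophage-like, 22, 18, 5 and 9 monocyte-like and 18, 14, 17 and 105 CD8 T-like cells as too shallow. The thinned *Nos2* shares were 7.12%, 5.69%, 10.2% and 25.1%, in the same order of conditions.

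In monocyte-like cells the *Nos2* share was 6.08%, 6.49%, 7.36% and 8.63%, and 3.91%, 4.03%, 3.91% and 5.64% after thinning, so that the higher *Nos2* level in *Aire*-/- anti-PD1 monocyte-like cells came with little difference in share. CD8 T-like cells, which should lack the gene, had *Nos2* in 0.690%, 0 of 212 cells (which allows up to 1.42%), 0.939% and 0.829%. After thinning these background values were 0 of 127 and 0 of 198 cells in *Aire*+/+ and 0.510% and 0.646% in *Aire*-/-. At least 10 *Nos2* UMIs were counted in 5 of 141, 3 of 82, 7 of 93 and 12 of 59 *Nos2*-positive macrophage-like cells, and in 0 of 48, 2 of 35, 2 of 38 and 7 of 36 *Nos2*-positive monocyte-like cells. Such cells were thus most frequent in *Aire*-/- anti-PD1 in both types.

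**Figure D2:**
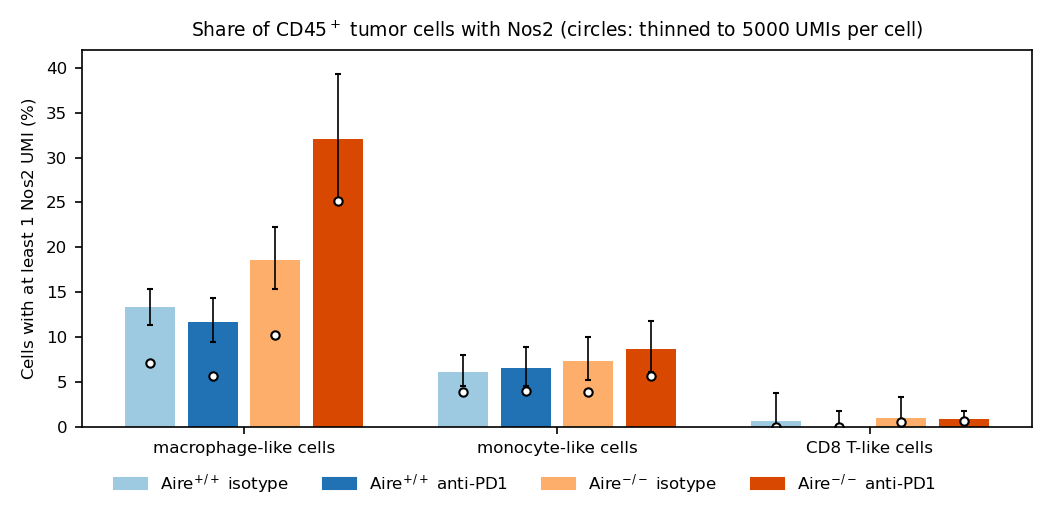
Share (percent) of macrophage-like, monocyte-like and CD8 T-like cells of the CD45+ tumor libraries that held *Nos2*, by condition, at full depth (bars with Clopper-Pearson 95% intervals) and thinned to 5000 UMIs per cell (circles). Macrophage-like cells with *Nos2* reach 32.1% in *Aire*-/- anti-PD1 and monocyte-like cells 8.63%.

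*Ass1*, the enzyme that joins citrulline to aspartate, was 142, 159, 206 and 220.2 CPM in macrophage-like cells and 139, 167, 171 and 152 CPM in monocyte-like cells. Macrophage-like *Ass1* was higher in *Aire*-/- under both antibodies, 1.38 times with anti-PD1 (log2 0.47, interval 0.32 to 0.61) and 1.45 times with isotype (log2 0.53, interval 0.44 to 0.63). Anti-PD1 and isotype levels of *Ass1* were not distinguishable in *Aire*-/- macrophage-like cells (log2 0.10, interval −0.05 to 0.25). Mature dendritic-like cells, with at least 3 UMIs of *Ccr7* and *Fscn1*, had the highest *Ass1* of the 7 cell types compared, at 298, 194, 395 and 315 CPM over 66, 47, 67 and 66 cells. Intervals of *Ass1* in these cells (259 to 340.2, 161 to 232, 357 to 436 and 278 to 355) put *Aire*+/+ anti-PD1 lowest, and those of *Aire*+/+ isotype and *Aire*-/- anti-PD1 overlapped. The few such cells of the CD8+ tumor libraries did not repeat that order. There, *Ass1* was 149.7 CPM (117 to 188) in *Aire*+/+ isotype, 321 (244 to 415) in *Aire*+/+ anti-PD1 and 44.3 (24.8 to 73.1) in *Aire*-/- isotype, over 26, 15 and 13 cells, and *Aire*-/- anti-PD1 had 2 such cells.

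NK-like cells, with at least 2 UMIs of *Ncr1* and *Klrb1c* and at most 1 of CD3 genes, stood at the other end for *Ass1*. They gave 2, 1, 6 and 7 *Ass1* UMIs over 99, 122, 150 and 255 tumor cells and 0 UMIs in all 4 spleen libraries. Tumor CD8 T-like cells held *Ass1* at 46.2, 29.6, 35.1 and 24.8 CPM and the other T-like cells, without CD8 UMIs, at 121, 129, 76.6 and 106 CPM. In the spleen the matching *Ass1* levels were 55.5, 70.1, 93.9 and 71.3 CPM in CD8 T-like cells and 162, 134, 187 and 162 CPM in other T-like cells. *Ass1* was thus higher in splenic than in tumor CD8 T-like cells in each condition, with intervals that overlapped in *Aire*+/+ isotype. The sorted CD8+ libraries, with more cells, gave *Ass1* levels in CD8 T-like cells of 24.2, 19.9, 16.2 and 17.2 CPM in tumor and 41.6, 30.6, 29.7 and 38.0 CPM in spleen. Tumor over spleen, *Ass1* there had log2 ratios of −0.78, −0.62, −0.87 and −1.15.

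*Odc1*, which makes putrescine from ornithine, had its highest levels in the lymphocytes of these tumors. Macrophage-like cells held *Odc1* at 161, 202, 184 and 213 CPM and monocyte-like cells at 103, 139, 133 and 139 CPM. The genotypes were not distinguishable in *Odc1* with anti-PD1 in either cell type (log2 0.08, interval −0.07 to 0.22, and log2 0.00, interval −0.14 to 0.15). With isotype *Odc1* was higher in *Aire*-/-, by log2 0.19 (0.10 to 0.29) in macrophage-like and 0.37 (0.23 to 0.50) in monocyte-like cells. CD8 T-like cells held *Odc1* at 489, 447, 559 and 536 CPM, NK-like cells at 300.4, 450.1, 402 and 515 CPM, and other T-like cells at 1339, 1546, 1115 and 1329.9 CPM. Other T-like cells were thus the highest in *Odc1* of the cell types compared in each of the 4 tumors. CD8 T-like cells supplied 8.56%, 11.7%, 20.5% and 39.4% of the *Odc1* UMIs of their libraries and other T-like cells 29.0%, 28.2%, 20.8% and 25.5%. NK-like cells supplied 4.76%, 8.22%, 10.6% and 16.7% and macrophage-like cells, at their lower level, 28.6%, 25.8%, 20.6% and 4.54%. The CD8 T-like contribution was thus highest where these cells were most numerous, while their own *Odc1* level stayed between 447 and 559 CPM.

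Splenic lymphocytes held far less *Odc1*. CD8 T-like cells of the CD45+ spleen libraries had 36.7, 47.7, 25.8 and 26.1 CPM, so that tumor cells were 13.3, 9.38, 21.7 and 20.6 times higher (log2 3.74, 3.23, 4.44 and 4.36). NK-like cells of the spleen had *Odc1* at 53.1, 31.8, 44.9 and 53.4 CPM, from 18, 7, 13 and 13 UMIs, and tumor NK-like cells were 5.65, 14.2, 8.95 and 9.65 times higher. Tumor and spleen thus did not overlap in *Odc1* for these lymphocytes in any condition. Splenic other T-like cells had *Odc1* at 62.2, 54.2, 43.5 and 60.3 CPM, and the tumor ratios were 21.5, 28.5, 25.6 and 22.0. In the sorted CD8+ libraries *Odc1* in CD8 T-like cells was 357, 402, 452 and 497 CPM in tumor and 29.6, 34.4, 31.0 and 31.5 CPM in spleen. The ratios there were 12, 11.7, 14.6 and 15.8, and the tumor level of *Odc1* was higher in *Aire*-/- than in *Aire*+/+ under each antibody.

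Other T-like cells were split by *Foxp3*, the transcription factor of regulatory T cells, a split chosen after the *Odc1* values had been seen. Those with a *Foxp3* UMI numbered 126, 80, 35 and 71 in the tumors and held *Odc1* at 1773, 2189, 2468 and 2562 CPM, in 96.8%, 100%, 100% and 98.6% of cells. Those without held *Odc1* at 406, 812, 578 and 799 CPM. The part of the latter that had a *Cd4* UMI, 22, 35, 26 and 36 cells, held more, with *Odc1* at 649, 1703, 1432 and 1313 CPM. *Foxp3*-positive cells were therefore the higher group in *Odc1* in every tumor, but by less when *Foxp3*-negative cells were limited to those with *Cd4*. In the spleen *Foxp3*-positive cells, 31, 37, 50 and 54 in number, held *Odc1* at 158, 126, 76.5 and 150.2 CPM, above the 39.7, 40.6, 37.0 and 41.8 CPM of those without. The intervals of these splenic cells overlapped in *Aire*-/- isotype (46.0 to 119 against 27.1 to 49.3). *Ass1* followed the same division, at 159.6, 191, 194 and 239.9 CPM in *Foxp3*-positive and 38.2, 58.6, 30.3 and 48.4 CPM in *Foxp3*-negative tumor cells. In *Foxp3*-negative cells with *Cd4*, however, *Ass1* was 101, 147, 49.5 and 166 CPM, and only in *Aire*-/- isotype was the interval (24.7 to 88.6) apart from that of *Foxp3*-positive cells (151 to 244). A cell without a *Foxp3* UMI may still express *Foxp3*, so the *Foxp3*-negative group is not a pure one.

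**Figure D3:**
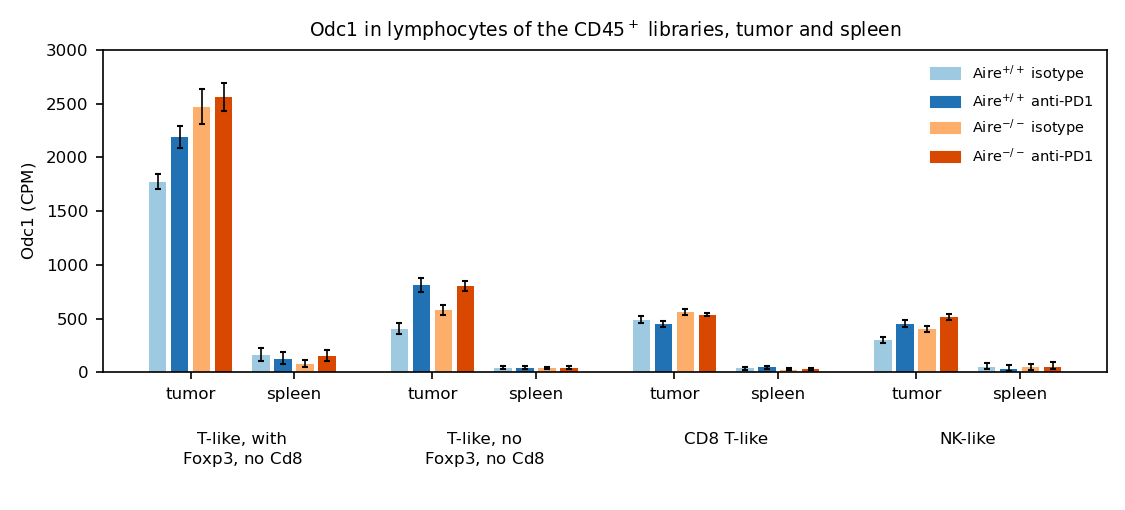
*Odc1* level (bars, CPM, with 95% counting intervals) in tumor and spleen lymphocytes of the CD45+ libraries, by condition, for other T-like cells with and without *Foxp3*, CD8 T-like cells and NK-like cells. Tumor values lie above the spleen values of the same cells throughout. Examples are 489 against 36.7 CPM in *Aire*+/+ isotype CD8 T-like cells and 2562 against 150.2 CPM in *Aire*-/- anti-PD1 *Foxp3*-positive cells.

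**Figure D4:**
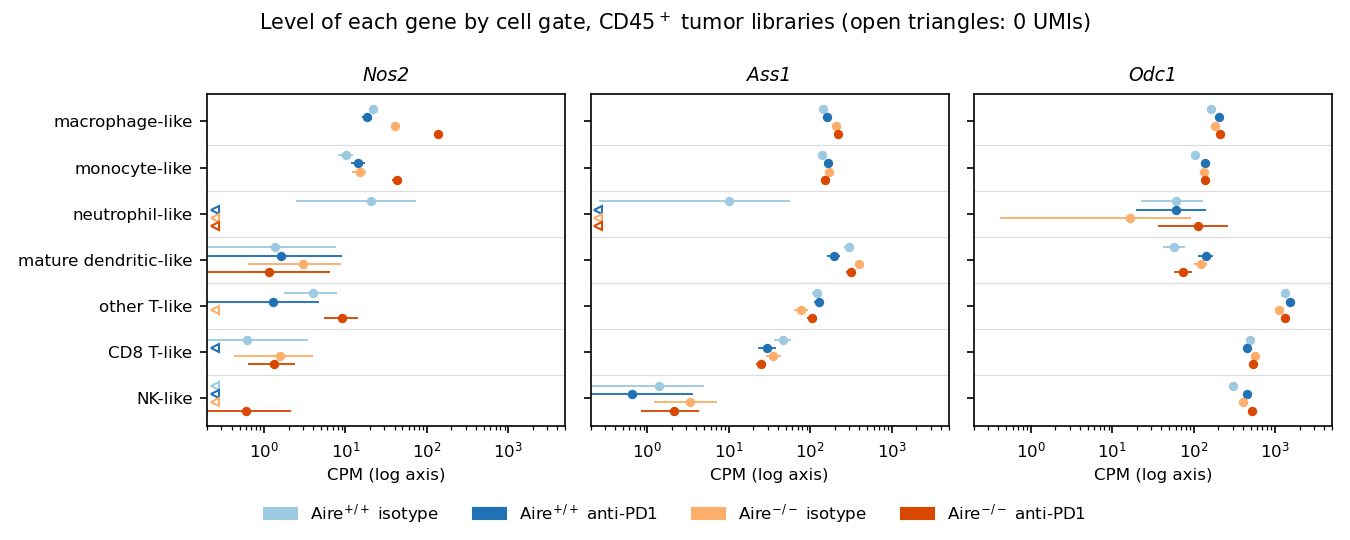
Level of each of the 3 genes (CPM, log axis, with 95% counting intervals) in 7 cell types of the CD45+ tumor libraries, by condition, with open triangles at the left edge where 0 UMIs were counted. Of these 7 types, *Nos2* is highest in macrophage-like cells, *Ass1* in mature dendritic-like cells and *Odc1* in other T-like cells, in each of the 4 conditions. Cells that met no gate are not drawn, and their *Nos2* level was above that of macrophage-like cells in both *Aire*+/+ conditions.

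The ratios of the 3 genes were read against all genes whose UMIs in the compared libraries summed to 10 or more. A count of 0 was entered as 3 counts in these ratios, so that a gene at 0 in the shallower cells passed 2-fold only if the other count was high enough. In macrophage-like cells with anti-PD1, *Aire*-/- over *Aire*+/+, 1 of the 3 genes, *Nos2*, was at least 2-fold higher, against 3.84% of 10892 genes, and 0 were at least 2-fold lower, against 7.22%. *Nos2* had 21 of the 10892 genes above it (0.193%). The paper had reported raised *Nos2* in macrophages of *Aire*-/- mice given anti-PD1, so this rank only describes the size of the ratio. The median log2 ratio of all genes in this comparison was −0.11, and *Ass1* and *Odc1* had 13% and 34.5% of genes above them. Under isotype none of the 3 genes passed 2-fold in macrophage-like cells, where 3.06% of 11494 genes were higher and 2.91% lower, and *Nos2* had 3.75% of genes above it. In monocyte-like cells with anti-PD1, *Nos2* was higher, against 2.81% of 10323 genes, and 0 of the 3 were lower, against 5.33%. *Nos2* had 0.843% of genes above it there. Under isotype none of the 3 passed 2-fold in monocyte-like cells, where 2.41% of 10704 genes were higher and 4.32% lower.

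The wider pathway was described with a list of 42 genes of arginine transport, arginine synthesis, nitric oxide, polyamines, ornithine, proline and creatine, with regulators. In macrophage-like cells with anti-PD1, 38 were tested for a 2-fold ratio of *Aire*-/- over *Aire*+/+, and 3 were higher, *Nos2* among them, and 1 lower, beside the 3.84% and 7.22% of all genes given above. Without the 3 genes 2 of 35 were higher. The list's median log2 ratio was −0.23, against −0.11 for all genes. Beside *Nos2*, the higher genes were *Slc7a2*, a cationic amino acid transporter that carries arginine, and *Nos3*, the endothelial nitric oxide synthase, which is named after its values were seen and rests on 5 and 8 UMIs. *Slc7a2* was 13.5, 14.6, 15.8 and 46.8 CPM, highest in *Aire*-/- anti-PD1 (log2 1.68 over *Aire*+/+ anti-PD1, interval 1.31 to 2.05). The lower gene under this rule was *Qdpr*, which regenerates tetrahydrobiopterin, at 44.4, 41.9, 33.1 and 20.4 CPM (log2 −1.04). *Gch1*, which starts tetrahydrobiopterin synthesis for nitric oxide synthases, was 106, 95.4, 117 and 108 CPM and showed no such order.

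Monocyte-like cells with anti-PD1 had 35 genes of the list tested, 2 higher and 1 lower, beside 2.81% and 5.33% of all genes, with a median log2 of 0.02 against −0.06 for all genes. *Nos2* and *Slc7a2* were again the higher pair, the latter at 10.1, 9.14, 10.1 and 21.4 CPM (log2 1.23, interval 0.75 to 1.71). The spermidine synthase gene *Srm* was the lower one, at 23.3, 11.5, 11.3 and 5.30 CPM (log2 −1.12). *Slc7a2* and *Nos2* thus had the same highest condition in both cell types, as described, while *Slc7a1* in macrophage-like cells, another arginine transporter, was 10.5, 11.6, 7.0 and 9.08 CPM. Under isotype, 0 of 38 genes were higher and 1 lower in macrophage-like cells, beside 3.06% and 2.91% of all genes. In monocyte-like cells 1 of 37 was higher and 3 lower, beside 2.41% and 4.32%. The higher one was *Irf1*, an interferon-induced transcription factor, at log2 1.01, and *Srm* was among the lower ones, at log2 −1.04.

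Among regulators on the list, *Irf1* was 193, 197, 284 and 357 CPM in macrophage-like and 303, 438, 611 and 732 CPM in monocyte-like cells. *Hif1a*, of the response to low oxygen, was 150, 160.4, 237 and 318 CPM in macrophage-like and 291, 327, 415 and 455 CPM in monocyte-like cells. Both were higher in each *Aire*-/- condition than in either *Aire*+/+ condition, as *Nos2* was in macrophage-like cells. So were *Irf8*, at 236, 216, 297 and 303 CPM, and *Stat3*, at 121, 119, 144 and 157 CPM, in macrophage-like cells. *Stat6* was not, at 60.7, 66.4, 67.6 and 53.1 CPM there. *Cebpb*, a myeloid transcription factor, was 1316, 1223, 1126 and 1008 CPM in macrophage-like cells. Of the polyamine genes, spermine oxidase *Smox* was 129, 122, 193 and 163 CPM and *Srm* 54.8, 41.7, 42.3 and 27.2 CPM in macrophage-like cells. Antizyme *Oaz1*, which restrains ornithine decarboxylase, was 224, 236, 256 and 285 CPM, and *Eif5a*, whose product carries a modification made from spermidine, was 720.0, 614, 615 and 482 CPM. In the creatine branch, *Gatm* was 236, 330.4, 251 and 176 CPM, lowest in *Aire*-/- anti-PD1.

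Within the 2450 macrophage-like tumor cells, the genes most like *Nos2* were *Egln3* (r = 0.32), *Ndrg1* (0.32), *Slc7a2* (0.31), *Bnip3* (0.30) and *Ero1l* (0.29), as the mean over the 4 libraries of Pearson's r across cells, out of 8849 genes. The least like *Nos2* were *Pld4* (r = −0.20), *Ly86* (−0.19), *Laptm5* (−0.19), *Fam105a* (−0.18) and *Rab3il1* (−0.18). *Slc7a2* reached r = 0.54 with *Nos2* in *Aire*-/- anti-PD1, from 0.26, 0.14 and 0.29 in the other conditions. *Ass1* had a mean r of 0.11 with *Nos2* and *Odc1* 0.00. These values are descriptions over cells that share a library and differ in depth, and most are weak.

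Pearson's r of log2 CPM was also taken over the 16 libraries among 10622 genes. These libraries span 2 tissues and 2 sorts, and r within a tissue or sort was not computed. *Nos2* was most like *Tnfaip6*, *Flrt3*, *Dmkn*, *Pdgfa* and *Batf2* (r of 0.99 each). *Odc1*, which was high in tumor libraries of both sorts, was most like *Ppp1r3b*, *Gzmd*, *Dusp5*, *Rbpj* and *Dusp2* (0.99 each). *Ass1* had *Serpinb8*, *Slamf8*, *B430306N03Rik* and *Zfp516* (0.97 each) and *Slc31a2* (0.96).

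Markers that had not been used for typing were checked in the gated cells. All 7 genes of a macrophage list were detected in macrophage-like cells, with summed levels of 5857, 7103, 4831 and 3596 CPM and *Apoe* the most abundant, against 3064, 3687, 2684 and 2347 CPM in monocyte-like cells. All 6 genes of a monocyte list were detected in both. They summed to 3203, 3933, 4389.9 and 4856 CPM in monocyte-like cells. There *Ly6a* was most abundant in *Aire*+/+ (1219 and 1511 CPM) and *Thbs1* in *Aire*-/- (1663 and 2087 CPM). In macrophage-like cells the list summed to 2532, 2731, 3966 and 4280.4 CPM, with *Ly6a* most abundant. *Ly6a* made up most of that sum (2009.8, 2240.3, 3112 and 3094 CPM). It is no marker of monocytes alone, with 3136, 2541, 2023 and 2047 CPM in other T-like cells. The 2 measured genes of a T cell list summed to at most 1.43 CPM and a B cell list to at most 0.739 CPM in macrophage-like cells. A neutrophil list, led by *Csf3r*, summed to 27.2, 31.3, 34.1 and 51.8 CPM there, with 3 of 4 genes detected. An NK cell list, led by *Klrk1*, summed to 48.3, 57.0, 98.8 and 119 CPM, with its 2 genes detected. Basophil or mast cell markers summed to 0.554 CPM in *Aire*+/+ isotype and 0 in the other 3 conditions, and MC38 or stromal markers to at most 3.16 CPM.

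The macrophage-like cells were not alike over the conditions in some of these markers, and *Nos2* differed beside them. *Ms4a7*, a macrophage gene, was 1389.5, 1531, 1035 and 561 CPM in macrophage-like cells, while the monocyte gene *Thbs1* was 217, 275, 477 and 791 CPM. Other markers of the same lists did not follow, as *Csf1r* was 491, 498, 485 and 439.9 CPM, *Mrc1* 35.9, 35.5, 31.5 and 38.6 CPM and *F13a1* 101, 70.3, 91.7 and 97.6 CPM. A dendritic list of 3 genes, nearly all of it *H2-Ab1*, summed to 3093, 3492, 4519.9 and 6009.5 CPM. In monocyte-like cells *Ms4a7* was 264, 316, 149 and 26.3 CPM and *Thbs1* 924, 1386, 1663 and 2087 CPM, whereas *Csf1r* was 512, 502, 467 and 449 CPM and *Vcan* 141, 151, 182 and 152 CPM. The part of these marker differences in the *Nos2* difference was not tested.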

How the data were processed

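The authors deposited UMI counts per gene and cell barcode for 16 libraries, made with Cell Ranger from 10x libraries of the 3′ end of RNA, without normalization. The paper also describes 10x libraries of the 5′ end of RNA, with T cell receptor sequences, from sorted cells. Entries named by symbol, chromosome and strand were reduced to the symbol, and those sharing one were summed. Cells with at least 200 genes and at most 20% mitochondrial UMIs were kept, as the study states. Cells meeting more than 1 gate were left out as mixed, which also served as the treatment of doublets (133, 90, 75 and 63 cells of the CD45+ tumor libraries). Intervals are exact, and no test was made, since each group had 1 library. Named genes were the 3 genes, pathway genes with at least 100 UMIs over the tumor macrophage-like cells, and the genes most similar to each of the 3, or least similar to *Nos2*. *Nos3*, *Aire* and the marker genes used for typing, splitting or checking cells were named outside this rule. Some planned results are not reported here. The members and lists were chosen with earlier results of these data known. Thinning drew 5000 UMIs per cell without replacement, with a fixed seed. Python 3.11.15, numpy 2.4.6, scipy 1.17.1 and matplotlib 3.10.9 were used. Alternatives to the gates, the depth, the scaling and the UMI minimum were tried.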

Additional observations from a re-analysis of the deposited data

Results flagged for a closer look

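Each of the following pairs had ratios in opposite directions. The macrophage-like ratios of *Ass1* and other ratios so marked are given for comparison only. The difference between the members of a pair was not tested. Values are log2 ratios with 95% counting intervals.

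*Ass1* changed direction with the condition. In whole CD45+ tumor libraries its genotype ratio was −0.42 (−0.50 to −0.35) with anti-PD1 and 0.33 (0.27 to 0.39) with isotype, and its ratio of anti-PD1 over isotype was 0.10 (0.04 to 0.16) in *Aire*+/+ and −0.65 (−0.72 to −0.58) in *Aire*-/-. In macrophage-like cells of these tumors the genotype ratio did not reverse, at 0.47 (0.32 to 0.61) with anti-PD1 and 0.53 (0.44 to 0.63) with isotype. In tumor monocyte-like cells anti-PD1 over isotype was 0.26 (0.15 to 0.38) in *Aire*+/+ and −0.17 (−0.31 to −0.03) in *Aire*-/-. In CD8+ spleen the genotype ratio of *Ass1* was 0.31 (0.15 to 0.48) with anti-PD1 and −0.50 (−0.66 to −0.33) with isotype, and anti-PD1 over isotype was −0.45 (−0.60 to −0.29) in *Aire*+/+ and 0.37 (0.19 to 0.54) in *Aire*-/-. CD8 T-like cells of the CD45+ spleen libraries, given for comparison, did not repeat this pattern. Their genotype ratio was 0.03 (−0.43 to 0.49) with anti-PD1 and 0.76 (0.28 to 1.26) with isotype. Anti-PD1 over isotype in them was 0.34 (−0.19 to 0.87) in *Aire*+/+ and −0.40 (−0.82 to 0.02) in *Aire*-/-. Between tissues, the anti-PD1 genotype ratio was −0.34 (−0.52 to −0.16) in CD8+ tumor and 0.31 in CD8+ spleen.

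*Odc1* of whole CD45+ libraries had, with anti-PD1, a genotype ratio of 0.60 (0.56 to 0.64) in tumor and −0.29 (−0.47 to −0.12) in spleen. For comparison, tumor CD8 T-like cells had 0.26 (0.16 to 0.36) and NK-like cells 0.19 (0.07 to 0.32). Other T-like cells had −0.22 (−0.30 to −0.14). Macrophage-like cells had 0.08 (−0.07 to 0.22), monocyte-like cells 0.00 (−0.14 to 0.15) and mature dendritic-like cells −0.92 (−1.41 to −0.43). Neutrophil-like cells had 5 *Odc1* UMIs in each library. CD8 T-like cells were 9.60% of the *Aire*+/+ and 34.9% of the *Aire*-/- tumor library. The part of cell numbers was not tested.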

How the results depend on the processing

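The log2 ratio of *Nos2*, *Aire*-/- over *Aire*+/+ with anti-PD1, kept its direction under all 10 alternatives run, from 2.73 to 3.08 in macrophage-like cells and 1.54 to 1.92 in monocyte-like cells. Neither ratio left its main interval. The gate by percent of UMIs and the removal of the cell richest in the gene were chosen after seeing the data. So were the monocyte-like ratio itself and all its alternatives.

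Shares of cells with *Nos2* stayed within their intervals in 8 of 8 values under each of 6 alternatives (5 or 30 C1q UMIs, C1q by percent, cells of 2 gates kept, the top 5% of cells by UMIs left out, and at most 10% mitochondrial UMIs). Thinning removes UMIs by construction and lowered all 8 shares beyond them. In the order of conditions used above, the thinned shares were 7.12, 5.69, 10.2 and 25.1% in macrophage-like cells and 3.91, 4.03, 3.91 and 5.64% in monocyte-like cells. Asking for at least 2 UMIs lowered all 8 shares, by construction, to 6.02, 5.12, 10.0 and 20.1% in macrophage-like cells and 2.79, 3.53, 4.07 and 5.52% in monocyte-like cells.

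The 48 library levels stayed within their intervals with all deposited barcodes kept. No paired analysis was possible between conditions because each condition, tissue and sort had 1 library, made from pooled mice, and for the same reason no difference between conditions was tested against the spread between mice. Tumor and spleen pair by condition, and their ratios are given for each condition and were not tested. Shares at 1 UMI depend on depth, so the shares at 5000 UMIs are the ones to compare between conditions. Barcodes shared between libraries were kept.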
